A study of Mus musculus with 79 samples.

Results

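The 10 genes described here are markers of inhibitory interneurons: Gad1, Gad2, Pvalb, Sst, Vip, Cck, Npy, Reln, Lamp5 and Calb2. They were chosen by symbol from 55471 gene identifiers in a table of raw counts, and each symbol matched 1 identifier. Bulk RNA sequencing had been done on the medial prefrontal cortex (mPFC) and the ventral hippocampus (vHipp) of 40 male CD-1 mice of wild-type (WT) genotype, 9 to 10 weeks old. Mice were either undefeated controls (CTRL) or stressed by chronic social defeat (CSDS) for 21 days, and both received 1 injection of saline or of ketamine at 10 mg/kg. Tissue was taken 7 days after the injection. Each library came from 1 region of 1 mouse, with 10 libraries in each of the 8 groups except 9 for the mPFC of ketamine-treated CSDS mice, since the mPFC of mouse 5 was not analysed here. The mice lived in small groups with a social rank, which the labels do not give, so every group pools mice regardless of rank. Stress was given to whole social groups, whereas each mouse is treated as independent here.

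GABAergic interneurons are the local inhibitory cells of the cortex and hippocampus. They make GABA from glutamate with the enzymes encoded by Gad1 and Gad2, and their subtypes are told apart by calcium-binding proteins such as parvalbumin (Pvalb) and calretinin (Calb2), by neuropeptides such as somatostatin (Sst), vasoactive intestinal peptide (Vip), cholecystokinin (Cck) and neuropeptide Y (Npy), and by genes such as Reln and Lamp5. Several of these genes are not confined to interneurons: Cck is also made by pyramidal cells, Reln by Cajal-Retzius cells and entorhinal neurons, Lamp5 by some cortical pyramidal cells, and Calb2 in the mouse by mossy cells of the dentate hilus. In bulk tissue, fewer cells of a type and less RNA per cell cannot be told apart.

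Promoter windows of 300 bases, 250 before and 50 after RefSeq's start site, were held by RefSeq (GRCm38.p6) for 9 of the 10 genes, in 11 windows; for Calb2 none was matched. Somatostatin and vasoactive intestinal peptide are textbook examples of genes that respond to cyclic AMP through a short DNA element, so the windows were searched on both strands for the full cAMP response element TGACGTCA, which reads the same on either strand, and for its core TGACG, whose reverse complement is CGTCA. Matches of the full element contain the core. The stretches of 30 bases around each match before that start site are given 5′ to 3′ in the direction of the gene, with every base covered by a core match in capitals.
Sst: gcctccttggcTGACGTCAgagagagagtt
Vip: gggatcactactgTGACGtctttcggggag
Cck: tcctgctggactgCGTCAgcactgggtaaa
Gad2: tccatttcccttcCGTCActctctcatctc
They lie at chr16:23890874-23890903 on the minus strand (Sst), chr10:5639126-5639155 on the plus strand (Vip), chr9:121495725-121495754 on the minus strand (Cck) and chr2:22622281-22622310 on the plus strand (Gad2). In Sst the match spans bases 48 to 41 before RefSeq's start site and is the full element, which 1.79% of all 32851 promoter windows hold. The core alone is common, in 20.8% of all windows, and lies at bases 79 to 75 before that start in Vip, 47 to 43 in Cck and 33 to 29 in Gad2. For Vip and Cck RefSeq's start site is also where the gene begins in the deposited table, whereas for Sst and Gad2 the table's gene begins farther upstream, so that by its positions, given next, these stretches lie inside the gene. The windows of Gad1, Pvalb, Npy, Reln and Lamp5 do not contain these letters.

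On GRCm38, the build of the deposited table, the plus strand carries Gad1 (chr2:70553072-70602014), Gad2 (chr2:22622205-22693874), Vip (chr10:5639218-5647617), Npy (chr6:49822710-49829507) and Lamp5 (chr2:136052239-136069917). The minus strand carries Pvalb (chr15:78191114-78206400), Sst (chr16:23889573-23890958), Cck (chr9:121489824-121495694), Reln (chr5:21884454-22344702) and Calb2 (chr8:110137502-110168210). Counts cover the merged exons of each gene, from 566 bases in Npy to 23738 bases in Reln.

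Total counts per library ranged from 11726129 to 41767119 and all 10 members passed the filter on low counts in each fit. Levels are given as CPM, counts scaled to a common library size, with TMM factors (trimmed mean of M values, a correction for library composition) computed over all libraries. The summed level of 7 hippocampal genes lay between 755 and 1342 CPM in the vHipp and between 235 and 628 CPM in the mPFC, without overlap, and that of 6 cortical genes between 118.9 and 469 CPM in the vHipp and between 325 and 717 CPM in the mPFC, with overlap. Genes of the striatum were present in both regions, at 85.8 to 132.6 CPM in the mPFC. The vHipp library of mouse 11, a ketamine-treated CSDS mouse, stood apart: it was the highest of its region in the summed astrocyte (3043 CPM, the next library 1798), microglia (491 CPM, the next 281), endothelial (250 CPM, the next 184), Cajal-Retzius (32.2 CPM, the next 16.1) and glutamatergic neuron genes (10350 CPM, the next 8457), and its hippocampal genes, at 1284 CPM, were the second highest. The stress, ketamine and regional tests were repeated without it. The spreads and most alike genes below include it. Choroid plexus genes reached 702 CPM in the vHipp of mouse 9, a saline-treated CSDS mouse, against a median of 23.4 CPM, and summed oligodendrocyte genes varied from 494 to 5815 CPM in the mPFC.

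Per kilobase of exon, the scale on which levels of different genes can be compared, Cck and Sst were the most abundant members in both regions. In the mPFC the order of median levels was Cck (231 CPM per kb), Sst (183), Npy (61.7), Lamp5 (58.3), Gad1 (39.8), Gad2 (29.1), Vip (18.7), Pvalb (18.5), Calb2 (13.1) and Reln (5.88). Of the neighbours in this order, Vip exceeded Pvalb in 20 of 39 libraries, so this pair did not differ beyond its spread, and Npy exceeded Lamp5 in 28 with overlapping ranges, while Sst exceeded Npy and Calb2 exceeded Reln in all 39 with no overlap of their ranges. In the vHipp the order was Sst (144.05 CPM per kb), Cck (138.9), Npy (51.0), Gad1 (47.3), Gad2 (33.3), Calb2 (28.4), Pvalb (19.3), Lamp5 (17.2), Reln (5.44) and Vip (4.22). There, Sst exceeded Cck in 21 of 40 libraries, Npy exceeded Gad1 in 25, Gad2 exceeded Calb2 in 21, Calb2 exceeded Pvalb in 23 and Pvalb exceeded Lamp5 in 26, while Cck exceeded Npy in all 40. Reln has a long merged exon model of 23738 bases, which lowers its level on this scale.

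**Figure D1:**
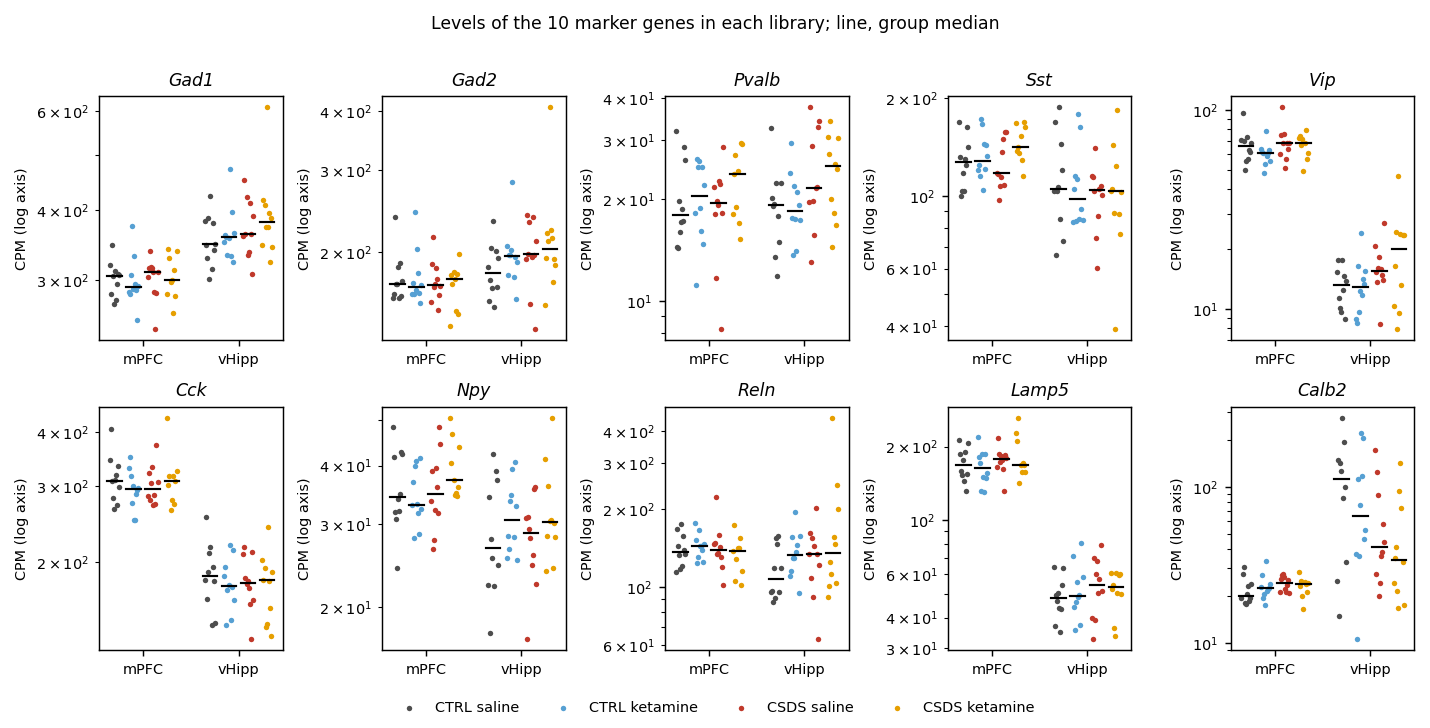
CPM of the 10 genes in each library on log axes, by region and by stress and treatment group, with a line at each group median. Vip and Lamp5 do not overlap between the regions, Calb2 spreads from 10.5 to 278 CPM in the vHipp, and the 4 groups of a region overlap for every gene.

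The comparison of the regions asked how the makeup of inhibitory markers differs between the mPFC and the vHipp, whatever the stress group and treatment. Of the 10 members, 8 differed at an adjusted p under 0.05 (edgeR quasi-likelihood test, Benjamini-Hochberg over 31534 genes). Vip, Lamp5, Cck, Sst and Npy were higher in the mPFC, and Calb2, Gad1 and Gad2 were lower. Among all genes tested, 48.9% differed, 24.5% higher and 24.4% lower in the mPFC, so a regional difference by itself is common in these data. Under edgeR's stricter filter on low counts (filterByExpr) the share was 65.8% of 18973 genes. The median absolute log2 fold change (LFC) was 0.30 over the members and 0.26 over all genes. DESeq2 called 8 members too.

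Gad1 encodes GAD67, the enzyme that makes most of the brain's GABA. It ranged from 246 to 375 CPM (median 304) in the mPFC and from 301 to 608 CPM (median 362) in the vHipp. The ranges overlapped, but 19 of 39 mPFC libraries lay below every vHipp library, and Gad1 was higher in the vHipp in all but 2 of 39 mice with both regions. The LFC of mPFC against vHipp was -0.30 (SE 0.04, adjusted p = 2.98e-11, edgeR). Gad2 encodes GAD65, the form of the enzyme found at synaptic terminals. It ranged from 139.4 to 244 CPM (median 171) in the mPFC and from 137.1 to 407 CPM (median 196) in the vHipp, with an LFC of -0.19 (SE 0.05, adjusted p = 0.00091, edgeR), and 11 of 39 mice had more Gad2 in the mPFC. The highest vHipp library for both enzymes was that of mouse 11, and without it the LFC was -0.28 for Gad1 and -0.16 for Gad2, both still called. Per kilobase, Gad1 stood above Gad2 in every library, by 1.34 ± 0.10 times (SD, n = 39) in the mPFC and 1.45 ± 0.13 times (SD, n = 40) in the vHipp.

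Among the neuropeptides, Vip differed most. It marks interneurons that largely inhibit other interneurons. It ranged from 48.4 to 103.2 CPM (median 63.5) in the mPFC and from 7.90 to 46.6 CPM (median 14.4) in the vHipp. Every mPFC library lay above every vHipp library, an LFC of 2.09 (SE 0.09, 4.25-fold, adjusted p = 7.35e-35, edgeR). Cck, the peptide of a basket cell class and of many pyramidal cells, ranged from 250 to 431 CPM (median 301) in the mPFC and from 133.1 to 254 CPM (median 181) in the vHipp. It was higher in the mPFC of all 39 mice, with 37 mPFC libraries above all of the vHipp and an LFC of 0.75 (SE 0.05, adjusted p = 1.23e-25, edgeR).

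Sst, made by interneurons that target dendrites, ranged from 97.6 to 173 CPM (median 131.8) in the mPFC and from 39.1 to 187 CPM (median 103.9) in the vHipp. The wider vHipp range enclosed that of the mPFC, and Sst was higher in the mPFC in 30 of 39 mice, with an LFC of 0.31 (SE 0.08, adjusted p = 0.00071, edgeR). Npy, often made by Sst cells and by neurogliaform cells, ranged from 24.2 to 50.6 CPM (median 34.9) in the mPFC and from 17.0 to 50.6 CPM (median 28.8) in the vHipp. The ranges overlapped almost fully, and Npy too was higher in the mPFC in 30 of 39 mice, by an LFC of 0.28 (SE 0.06, adjusted p = 0.00019, edgeR).

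The calcium-binding proteins behaved unlike each other. Pvalb, which marks fast-spiking basket and chandelier cells, ranged from 8.24 to 31.9 CPM (median 19.3) in the mPFC and from 11.8 to 37.5 CPM (median 20.1) in the vHipp. These ranges overlapped, 19 of 39 mice had more Pvalb in the mPFC, and the LFC of -0.09 (SE 0.09, 95% interval -0.27 to 0.09, adjusted p = 0.47, edgeR) was not called. Calb2 ranged from 16.4 to 33.4 CPM (median 22.8) in the mPFC but from 10.5 to 278 CPM (median 49.5) in the vHipp. The vHipp range enclosed that of the mPFC, Calb2 was higher in the vHipp in all but 7 of 39 mice, and the LFC was -1.72 (SE 0.19, adjusted p = 3.85e-13, edgeR).

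Lamp5, a membrane protein gene of neurogliaform cells, ranged from 130.9 to 263 CPM (median 171) in the mPFC and from 32.6 to 80.96 CPM (median 50.4) in the vHipp. Again no library of one region reached the other, with an LFC of 1.75 (SE 0.07, 3.36-fold, adjusted p = 8.42e-39, edgeR). Reln, the secreted glycoprotein that guides neuronal layering in development, ranged from 102.03 to 223 CPM (median 139.5) in the mPFC and from 63.0 to 450 CPM (median 129.2) in the vHipp. The vHipp range enclosed that of the mPFC, and the LFC of 0.03 (SE 0.08, 95% interval -0.14 to 0.20, adjusted p = 0.84, edgeR) was not called. Exons of Reln overlap those of 1 antisense gene, Gm10475, over 246 bases, and whether the counting used the strand is not given in the sources used here.

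**Figure D2:**
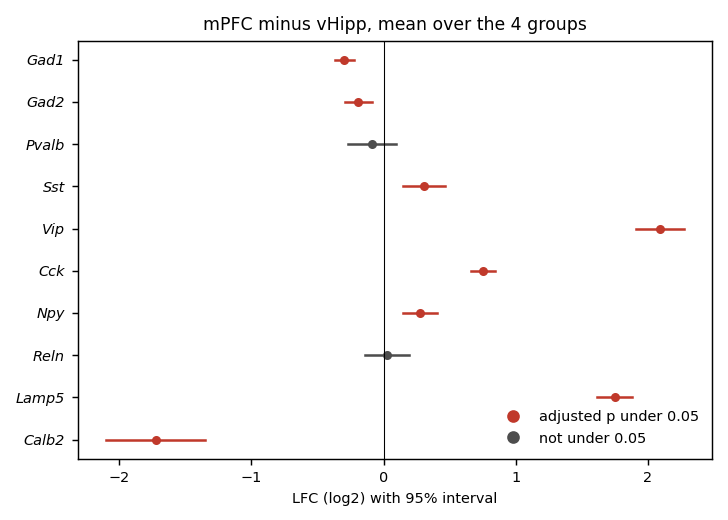
LFC of each gene, mPFC minus vHipp, with its 95% interval from edgeR, in red where the adjusted p was under 0.05. Vip (2.09) and Lamp5 (1.75) stand farthest to the right, Calb2 (-1.72) farthest to the left, and the intervals of Pvalb and Reln cross 0.

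Related genes from 4 lists were read beside the background of 48.9%, which was 65.8% among 18973 genes under edgeR's stricter filter on low counts (filterByExpr). Of 7 genes of GABA packaging, reuptake and breakdown, 6 differed, 2 of them higher in the mPFC: Slc6a13 (LFC 1.36, SE 0.14) and Slc38a1 (LFC 0.40, SE 0.04), a glutamine carrier. The GABA transporter gene Slc6a11 (LFC -0.34, SE 0.04) was lower in the mPFC, as Gad1 and Gad2 were. The median absolute LFC of the list was 0.31.

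All 15 interneuron transcription factors differed, 9 of them higher in the mPFC, with a median absolute LFC of 0.50. The largest differences were those of Prox1 (LFC -2.84, SE 0.10), which is also the hallmark of dentate granule cells, Nr2f2 (LFC -2.07, SE 0.09), Nkx2-1 (LFC -1.17, SE 0.16), which specifies interneurons of the medial ganglionic eminence, and Satb1 (LFC 0.87, SE 0.05). Prox1 had a median of 22.6 CPM in the mPFC and 150 CPM in the vHipp, while Nkx2-1 was near the limit of detection, at medians of 0.25 and 0.63 CPM.

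Of 28 genes that mark interneuron subtypes, 24 differed, 12 in each direction, with a median absolute LFC of 0.45. The largest differences were all toward the mPFC: Chodl (LFC 2.83, SE 0.20), Chat (LFC 2.44, SE 0.24), Tac2 (LFC 2.11, SE 0.10) and Crh (LFC 1.64, SE 0.13). Tac2, Crh and Chat are expressed in cortical Vip cells, and Chodl in a rare class of long-range Sst cells. Of these 4, Tac2 had the highest levels, with medians of 10.3 CPM in the mPFC and 2.28 CPM in the vHipp. Chodl and Chat were near 0 in the vHipp, at medians of 0.059 and 0.051 CPM with the lowest library at 0, against 0.51 and 0.34 CPM in the mPFC.

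Receptors for the member peptides and for reelin split evenly, with 5 of 16 higher and 5 lower in the mPFC and a median absolute LFC of 0.30. Their share called, 62.5%, or 66.7% of 15 under the stricter filter, was near the background. Cckbr, the main brain receptor of cholecystokinin, was 12.1-fold higher in the mPFC (LFC 3.59, SE 0.07), at medians of 106.6 and 9.12 CPM, and no library of one region reached the other. Npy2r, the presynaptic neuropeptide Y receptor, was 11.5-fold lower in the mPFC (LFC -3.52, SE 0.07), at medians of 5.09 and 57.7 CPM, again without overlap. The somatostatin receptors Sstr2 (LFC 1.47, SE 0.09) and Sstr5 (LFC 1.33, SE 0.15) were higher in the mPFC, while Sstr3 (LFC -0.997, SE 0.06) and Sstr1 (LFC -0.31, SE 0.07), named after their values were seen, were lower, so the somatostatin receptors did not share a direction.

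The effect of CSDS was asked with saline, with ketamine and as the mean over both treatments. In the mPFC no member and no gene passed the adjusted threshold in these comparisons by edgeR or DESeq2. At an unadjusted p under 0.05, 0 of 10 members were found with saline (2.94% of all 28993 genes), with ketamine (5.8%) and in the mean effect (3.52%). The mean LFC of CSDS against CTRL lay between -0.05 and 0.10 over the 10 members, and the widest 95% interval, that of Pvalb, ran from -0.23 to 0.27. Gad1, with the narrowest, had an LFC of 0.01 (95% interval -0.07 to 0.09). The members with the smallest p were Calb2 with saline (LFC 0.14, SE 0.10), Npy with ketamine (LFC 0.21, SE 0.11) and Lamp5 in the mean effect (LFC 0.10, SE 0.07).

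In the vHipp the members were more spread. Again no member passed the adjusted threshold, nor did any of the 28991 genes by edgeR. DESeq2 called 14 genes in the mean stress effect, none of them a member, and no gene in the other comparisons. In the mean effect, 3 of 10 members had an unadjusted p under 0.05, where 9.71% of all genes did: Vip (LFC 0.45, SE 0.16, unadjusted p = 0.0065), Pvalb (LFC 0.33, SE 0.12, unadjusted p = 0.011) and Calb2 (LFC -0.85, SE 0.34, unadjusted p = 0.015). The smallest adjusted p of a member was 0.37, and the median LFC was 0.10 over the members and -0.0025 over all genes. With saline alone 0 of 10 members had an unadjusted p under 0.05, where 5.57% of genes did, and with ketamine 1 of 10, where 5.42% did.

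Vip in the vHipp lay at 8.85, 13.2 and 17.7 CPM (lowest, median, highest) in saline-treated and 8.51, 12.8 and 24.0 CPM in ketamine-treated CTRL mice. In CSDS mice it lay at 8.34, 15.6 and 26.9 CPM with saline and 7.90, 19.9 and 46.6 CPM with ketamine. Both CTRL ranges lay wholly inside both CSDS ranges. The highest library was that of mouse 11, and without it the mean stress LFC was 0.34 (adjusted p = 0.51, edgeR). The stress effect with ketamine, an LFC of 0.57 (SE 0.22, unadjusted p = 0.013, adjusted p = 0.90, edgeR), became 0.36 without it (unadjusted p = 0.086).

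Pvalb in the vHipp had group medians of 19.2 and 18.4 CPM in CTRL mice with saline and ketamine, and of 21.6 and 25.1 CPM in CSDS mice. The lowest libraries of the 4 groups lay between 11.8 and 14.5 CPM and the highest between 29.5 and 37.5 CPM, so the groups overlapped. With saline the LFC was 0.34 (SE 0.18), and without mouse 11, whose library was the lowest for Pvalb in its group, the mean stress LFC was 0.36 (adjusted p = 0.48, edgeR). Without that library Pvalb was the 1 member of 10 with an unadjusted p under 0.05 both with saline (LFC 0.35, unadjusted p = 0.048, adjusted p = 0.78, edgeR), where 6.35% of all genes did, and with ketamine (LFC 0.38, unadjusted p = 0.037, adjusted p = 0.98, edgeR), where 4.14% did.

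Calb2 in the vHipp lay at 14.9, 112.8 and 278 CPM (lowest, median, highest) in saline-treated and 10.5, 64.7 and 221 CPM in ketamine-treated CTRL mice. In CSDS mice it lay at 20.0, 41.2 and 173 CPM with saline and at 16.7, 34.0 and 142.4 CPM with ketamine. Each group spanned both low and high libraries, and the highest value of a group exceeded its lowest several-fold in all 4. Prox1, named after its value was seen because dentate granule cells express it, had a mean stress LFC of -0.43 in the same fit (SE 0.15, unadjusted p = 0.0075, adjusted p = 0.37, edgeR), the 1 negative value among the 6 interneuron transcription factors with an unadjusted p under 0.05. The summed hippocampal genes had medians of 932 CPM in CTRL and 984 CPM in CSDS mice with saline, and of 1031.2 and 968 CPM with ketamine, so they were not lower in CSDS mice under both treatments. The summed cortical genes had group medians between 210 and 263 CPM. Their part in the Calb2 values was not tested.

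The other members were closer to 0 in the mean stress effect of the vHipp. Gad1 had an LFC of 0.11 (SE 0.06), Gad2 of 0.14 (SE 0.08) and Reln of 0.27 (SE 0.14), and without the library of mouse 11, the highest for all 3, these were 0.07 (SE 0.05), 0.07 (SE 0.06) and 0.13 (SE 0.12). Sst had an LFC of -0.12 (SE 0.14; -0.07 without that library), Cck of -0.02 (SE 0.07; -0.0056 without it), Npy of 0.0035 (SE 0.10; 0.011 without it) and Lamp5 of 0.09 (SE 0.10). The 95% intervals of these 7 genes all included 0.

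**Figure D3:**
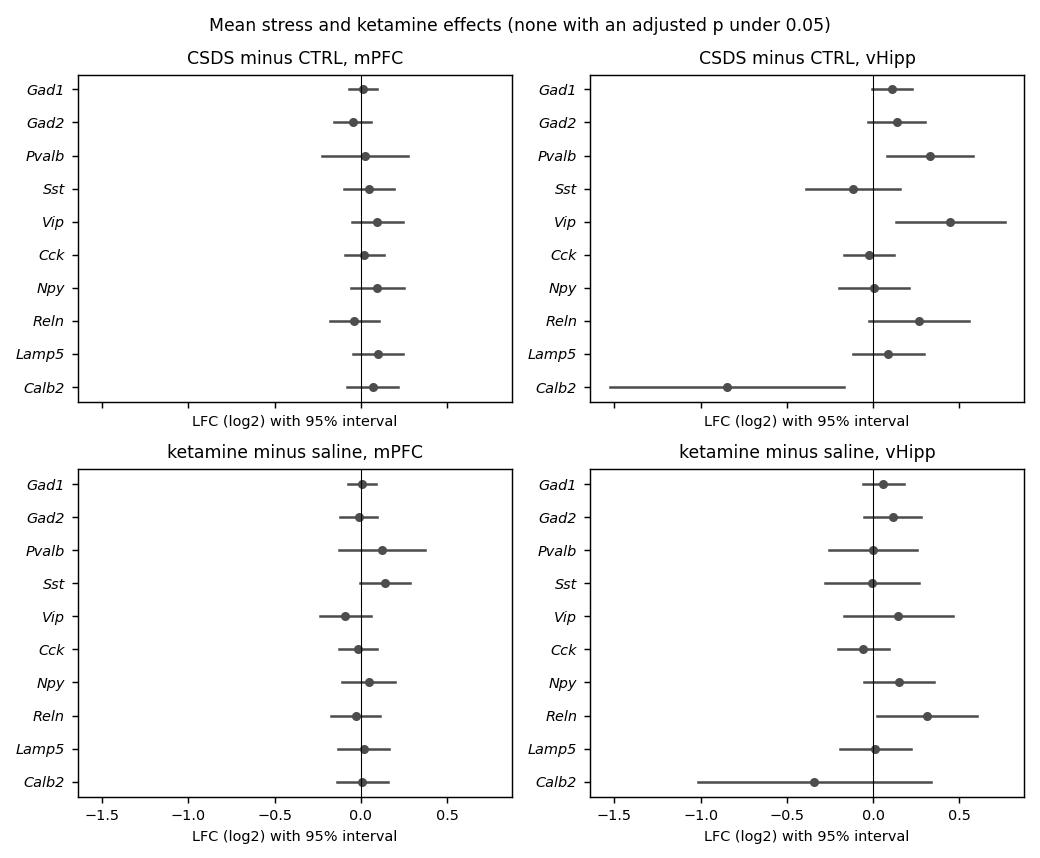
Mean stress effect (CSDS minus CTRL, over both treatments) and mean ketamine effect (ketamine minus saline, over both stress groups) of each gene as LFC with its 95% interval from edgeR, in the mPFC and the vHipp. Intervals are narrower in the mPFC, and those of Vip, Pvalb and Calb2 for stress and of Reln for ketamine leave out 0 in the vHipp, without passing the adjusted threshold.

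In the mean stress effect of the vHipp, no gene of the related lists passed the adjusted threshold. Of the 28 subtype genes, 9 had an unadjusted p under 0.05, all of them with a positive LFC, where 9.71% of all genes did, and the median LFC was 0.18 in the list and -0.0025 over all genes. Tac2 had the smallest p (LFC 0.60, SE 0.16, unadjusted p = 0.00062, adjusted p = 0.32, edgeR). Of the 15 transcription factors, 6 did, 5 of them positive, with Dlx1 first (LFC 0.27, SE 0.08, unadjusted p = 0.0013). Of the 7 GABA genes 2 did, with Abat first (LFC 0.17, SE 0.07), and of the 16 receptors 4 did, all negative: Sstr1 (LFC -0.35, SE 0.12), Sstr2 (LFC -0.27, SE 0.13), Npy1r (LFC -0.16, SE 0.07) and Lrp8 (LFC -0.11, SE 0.05). Sstr2, Npy1r and Lrp8 are named here after their values were seen. Without the vHipp library of mouse 11 the counts were 7 of 28, 5 of 15, 1 of 7 and 3 of 16, where 8.53% of all genes had an unadjusted p under 0.05, and the median LFC of the subtype genes was 0.14. With ketamine, leaving it out took the counts from 5 to 1 of 28 subtype genes and from 6 to 2 of 15 transcription factors. The shares of all genes were 5.42% and 4.14%. With saline these counts went from 3 to 6 and from 1 to 2, where the shares were 5.57% and 6.35%. Under filterByExpr, 9 of 26 subtype genes were found in the mean effect, where 11.8% of 18024 genes were, 1282 positive and 838 negative. In the mPFC, none of the 66 genes of the lists had an unadjusted p under 0.05 in the mean stress effect, where 3.52% of all genes did. With saline 1 of the 28 subtype genes and 1 of the 15 transcription factors did (2.94% of all genes). With ketamine 4 of the 28 subtype genes and 3 of the 16 receptors did (5.8% of all genes), among them Sstr1 (LFC -0.36, SE 0.12, unadjusted p = 0.0049, adjusted p = 0.83, edgeR).

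Ketamine, an antagonist of the NMDA receptor, was compared with saline in CTRL mice, in CSDS mice and as the mean over both, 7 days after the injection. No member and no gene passed the adjusted threshold in either region by edgeR or DESeq2. In the mPFC 0 of 10 members had an unadjusted p under 0.05 in CTRL mice (3.64% of all genes) and in the mean effect (3.07%), and 1 of 10 in CSDS mice (4.32%). This was Sst, with 97.6, 117.6 and 157 CPM (lowest, median, highest) in saline-treated and 115.6, 141.6 and 168 CPM in ketamine-treated CSDS mice. The groups overlapped over most of their range, with an LFC of 0.21 (SE 0.10, 95% interval 0.01 to 0.42, unadjusted p = 0.042, adjusted p = 0.99, edgeR). The mean ketamine LFC of Sst in the mPFC was 0.14 (SE 0.07), and over the 10 members it lay between -0.09 and 0.14. In CTRL mice the smallest p was that of Vip (LFC -0.14, SE 0.10).

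In the vHipp 0 of 10 members had an unadjusted p under 0.05 in CTRL mice (2.88% of all genes) and in CSDS mice (2.9%), and 1 of 10 in the mean ketamine effect (3.39%). This was Reln, at 87.6, 107.4 and 157 CPM (lowest, median, highest) with saline and 94.6, 132.96 and 195 CPM with ketamine in CTRL mice. In CSDS mice it lay at 63.0, 134.02 and 201 CPM with saline and 91.8, 135.8 and 450 CPM with ketamine. The highest of these libraries was that of mouse 11, whose summed Cajal-Retzius genes were also the highest, and the part of those cells in the Reln value was not tested. The mean ketamine LFC of Reln was 0.31 (SE 0.14, unadjusted p = 0.036, adjusted p = 1.00, edgeR), and 0.17 without that library (unadjusted p = 0.15). In CSDS mice it was 0.39 (SE 0.20) with and 0.11 without the library, and in CTRL mice 0.24 (SE 0.20).

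No member and no gene passed the adjusted threshold in the interaction of stress and ketamine by edgeR or DESeq2. At an unadjusted p under 0.05, 0 of 10 members were found in the mPFC (5.31% of genes) and in the vHipp (2.84%). The smallest p was that of Npy in the mPFC (LFC 0.23, SE 0.15) and of Lamp5 in the vHipp (LFC -0.20, SE 0.20).

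Whether the effects differed between the regions was tested in 1 fit of all libraries, and no member and no gene passed the adjusted threshold by edgeR or DESeq2. For the mean stress effect, 1 of 10 members had an unadjusted p under 0.05, where 6.86% of genes did: Calb2, whose effect in the mPFC exceeded that in the vHipp by 0.93 on the log2 scale (SE 0.37, unadjusted p = 0.014, adjusted p = 0.66, edgeR). For the mean ketamine effect 1 of 10 did, where 3.46% of genes did: Reln, with a difference of -0.35 (SE 0.17, unadjusted p = 0.042, adjusted p = 1.00, edgeR), and of -0.21 without the vHipp library of mouse 11. For Vip and Pvalb the difference of the stress effects was -0.34 (SE 0.18) and -0.29 (SE 0.18). The stress values of these genes in the vHipp were therefore not shown to differ from those in the mPFC.

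The members varied unequally between mice of the same group. After group means were removed, the SD of log2(CPM + 1) was 1.18 for Calb2 in the vHipp, larger than for 99.9% of 15575 genes with a mean of at least 1 CPM, whose median SD was 0.19. Vip (0.50), Reln (0.48), Sst (0.46) and Pvalb (0.40) followed in the vHipp, each above 94.8% of genes or more. In the mPFC, Pvalb had the largest SD of the members, 0.41, above 96.01% of 15657 genes, while Calb2 (0.22), Sst (0.23), Vip (0.23), Reln (0.23) and Lamp5 (0.24) were close together. Gad1 was the steadiest member in both regions, with an SD of 0.13 in the mPFC, where the median gene had 0.16, and 0.19 in the vHipp.

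Pairs of members known to mark the same cells were followed across mice as deviations of log2(CPM + 1) from the group means, with permutation tests of 100000 resamples within groups. The 10 pair relations and the 10 cross-region relations below were adjusted together, as 20 relations. The 2 GABA enzymes moved together in both regions: Pearson r was 0.79 in the mPFC (n = 39, Spearman rho 0.72) and 0.90 in the vHipp (n = 40, Spearman rho 0.79), each with the smallest permutation p possible, 1e-05 (adjusted 5e-05). Without the 2 mice farthest from the median of Gad1, r was 0.73 in the mPFC and 0.82 in the vHipp. Sst and Npy moved together too, with r of 0.73 in the mPFC (rho 0.74, permutation p = 1e-05, adjusted 5e-05, 0.70 without the 2 farthest mice) and 0.54 in the vHipp (rho 0.54, permutation p = 0.00084, adjusted 0.0034, 0.55 without the 2 farthest mice).

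Vip and Calb2 were related in the mPFC, with r of 0.64 (rho 0.59, permutation p = 1e-05, adjusted 5e-05, 0.62 without the 2 farthest mice). In the vHipp their r was 0.19 (rho 0.20, permutation p = 0.24, adjusted 0.39, 0.27 without the 2 farthest mice). Reln and Lamp5 ran in opposite directions in the vHipp, with r of -0.49 (rho -0.48, permutation p = 0.0011, adjusted 0.0036), and -0.35 without mice 11 and 18, the farthest from the median of Reln (permutation p = 0.026, adjusted 0.074), so the relation did not hold after adjustment without those mice. In the mPFC their r was 0.0099 (rho 0.04, permutation p = 0.95, adjusted 0.95, -0.02 without the 2 farthest mice). Pvalb and Gad1 had r of 0.39 in the mPFC (rho 0.30, permutation p = 0.020, adjusted 0.058), which did not hold after adjustment. Without mice 15 and 23, the farthest from the median of Pvalb, it was 0.23 (permutation p = 0.17). In the vHipp their r was 0.14 (rho 0.32, permutation p = 0.42, adjusted 0.56, 0.11 without the 2 farthest mice). Gad1 and Gad2 were each other's closest gene in both regions. In the mPFC, other genes lay closer than the partner to Sst (Rtl8b, r = 0.84) and Npy (Mrpl58, 0.75). The same held for Vip (Rfx4, 0.73) and Calb2 (Htr3a, 0.69). Whether a relation differed between the regions, or came from shared cells, was not tested.

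**Figure D4:**
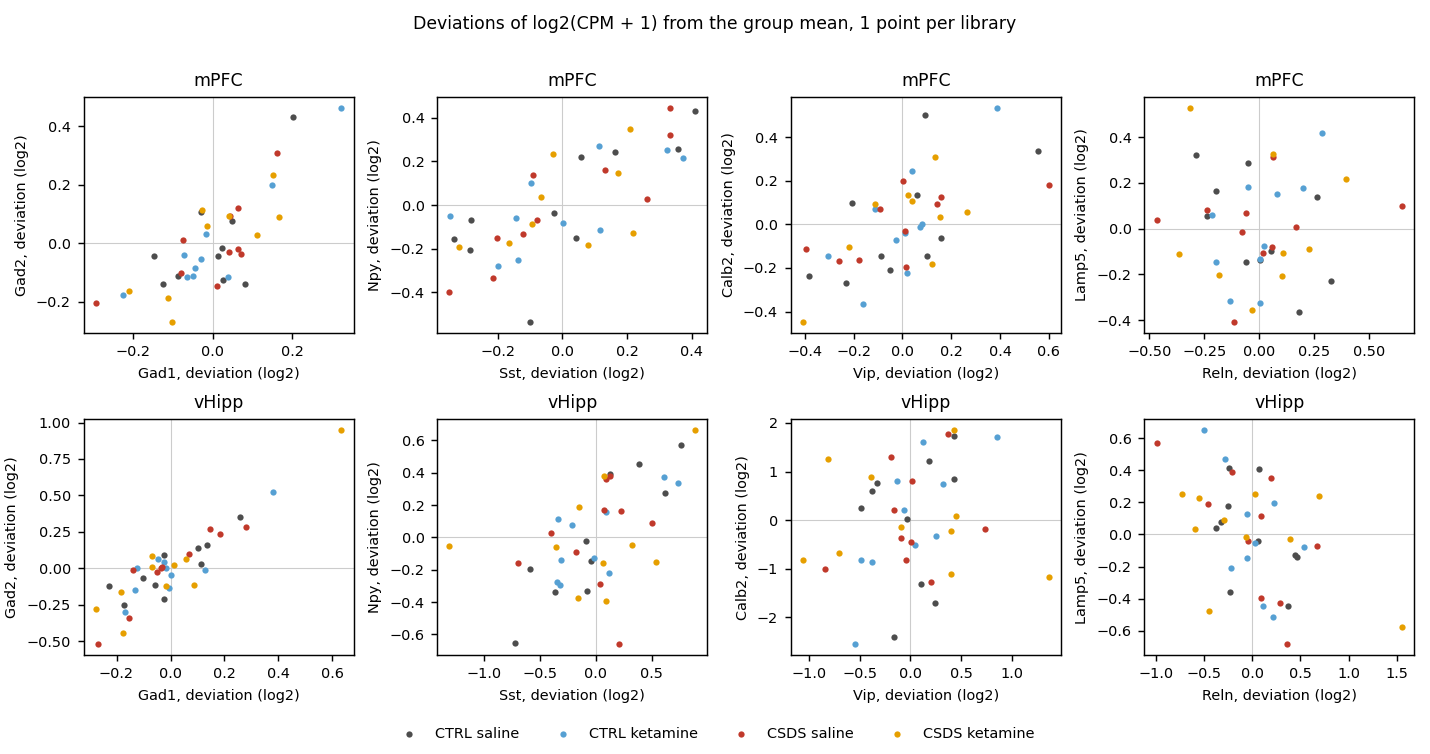
Deviations of log2(CPM + 1) from the group mean for 4 pairs of genes, 1 point per library, colored by group, in the mPFC (upper row) and the vHipp (lower row). Gad1 and Gad2 rise along a line in both regions (r of 0.79 and 0.90), Vip and Calb2 in the mPFC (0.64), and Reln and Lamp5 slope downward in the vHipp (-0.49), where mouse 11 is the point farthest to the right for Gad1, Vip and Reln.

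Across the 39 mice with both regions, no member's deviation in the mPFC was related to its deviation in the vHipp after adjustment. Pearson r was highest for Vip (0.32, rho 0.24, permutation p = 0.049, adjusted 0.12, 0.36 without the 2 farthest mice) and Gad2 (0.31, rho 0.34, permutation p = 0.063, adjusted 0.14, 0.42 without the 2 farthest mice). It was 0.28 for Cck (0.09 without the 2 farthest mice), 0.18 for Pvalb (0.31 without the 2 farthest mice), 0.13 for Gad1 (0.20 without the 2 farthest mice), 0.05 for Npy, 0.03 for Lamp5, -0.07 for Reln, -0.19 for Sst and -0.21 for Calb2, with permutation p between 0.11 and 0.85. As a description, the median r over 15188 genes with a mean of at least 1 CPM in both regions was 0.29.

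Genes whose deviations were most alike those of a member, up to 3 for each, were listed for each region, as a description over the libraries of that region, which share their depth and preparation. In the vHipp, Calb2 was followed by Adamts18 (r = 0.87), Scg2 (0.86), a granin of secretory vesicles, and Adcyap1 (0.85), which encodes the peptide PACAP. Adcyap1 was also the gene most like Sst there (0.75), before Chrm4 (0.70) and Trpc7 (0.70). Reln was followed by Gna13 (0.92), Bmpr1b (0.92) and Ndnf (0.91), the last a marker of neurogliaform and Cajal-Retzius cells, Gad1 by Gad2 (0.90) and Arl4c (0.88), and Gad2 by Gad1, Erbb4 (0.87), the neuregulin receptor of interneurons, and Ptprm (0.86). Pvalb was followed by Kcnab3 (0.83), Ckmt1 (0.82) and Sbds (0.82), Vip by Lbh (0.82), Scg3 (0.81) and Acadl (0.79), and Lamp5 by Sebox (0.78), E2f1 (0.77) and Rasd2 (0.75). For Cck they were Prmt2 (0.75), Espn (0.72) and Ngrn (0.72), and for Npy Tead2 (0.74), Nkapd1 (0.70) and Hpcal1 (0.66).

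In the mPFC, Gad1 was followed by Gad2 (0.79), Abhd3 (0.77) and Slc32a1 (0.74), the vesicular GABA transporter, and Gad2 by Gad1, Magel2 (0.72) and Zic1 (0.70). Pvalb was followed by Cplx1 (0.88), a complexin of fast synapses, Nefh (0.88), the heavy neurofilament, and Kcnab3 (0.88), a potassium channel subunit that was also its nearest gene in the vHipp. Calb2 was followed by Htr3a (0.69), the serotonin receptor subunit of the Vip and Calb2 lineage, Slc35d3 (0.68) and Tnfrsf8 (0.66), and Lamp5 by Ddit4l (0.81), the vesicular zinc transporter gene Slc30a3 (0.76) and Nrn1 (0.73). Sst was followed by Rtl8b (0.84), Sult4a1 (0.83) and Tmem151a (0.81), Npy by Mrpl58 (0.75), Puf60 (0.75) and Eif3h (0.74), and Cck by Pmm1 (0.88), Ramp1 (0.85) and Igfbp6 (0.85). For Vip they were Rfx4 (0.73), Nr2e1 (0.71) and Cat (0.68), and for Reln Ildr2 (0.74) and Tnfrsf19 (0.74).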

How the data were processed

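Stranded mRNA libraries were made from total RNA of the mPFC and vHipp, and the submitters' processing notes name bcl2fastq 2.20.0.422, CASAVA and GRCm38. Which aligner and counter were used is not given in the sources used here. The authors deposited unnormalized whole-number counts of reads for each gene, and a further deposited column gives gene length in bases of exon. Groups and mouse numbers were taken from the sample labels. Nothing in the labels says that a library was repeated, no 2 libraries were identical, and each was counted as 1 mouse. Symbols came from GENCODE vM21, which matched 55144 identifiers, and gene positions are those of the deposited table.

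Genes with more than 10 counts in total and detected in more than 3 libraries of a fit were tested with edgeR 4.0.16 (R 4.3.3), quasi-likelihood F test, TMM factors, all groups of the region in the fit, no covariate, two-sided, with Benjamini-Hochberg adjustment over all genes tested and a threshold of 0.05. The study's covariate for social groups was not in the labels. By the paper, whole social groups were either stressed or not, so mice of a social group are not independent. Here each mouse is a separate unit, so stress p-values may be too small and intervals too narrow. The sets of mice used below join CSDS and CTRL mice and do not stand in for social groups. Regions were compared in a fit of all 8 groups. A number in the labels marks 1 mouse in both regions, so the mouse was also fitted as a replicate block (39 mice). The deviations of the 2 libraries of a mouse correlated across genes with a median r of 0.28. The removal of group means itself makes the r with other mice of a group slightly negative (median -0.03). Of 39 mPFC libraries, 18 were nearest to the vHipp library of their own mouse. Relations were tested by permutation within groups (numpy 2.4.6), two-sided. Other settings were DESeq2 1.42.0, RLE factors, no filter, filterByExpr, a covariate for 5 sets of mice formed by number, each set left out in turn, only the groups compared and, for levels and relations, CPM without TMM factors or log2(CPM + 0.1). Leaving out the vHipp library of mouse 11 was chosen after the data were seen. Fits were tested on simulated data.

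The members, the gene lists and the tests were chosen with earlier results of these data known. The naming rule took the 10 members. From each of 4 lists it took the 4 largest LFC among called genes in the region difference and elsewhere the 1 gene with the smallest p. It also took the 3 genes most like each member in each region. Some genes that the rule took are not reported here.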

Additional observations from a re-analysis of the deposited data

Results flagged for a closer look

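In each of the 80 combinations of member, region and group, the gap between the most extreme library and its neighbor was compared with the range of the group (Dixon's criterion). The gap was unusually wide in 14 of them, each time for the highest library. For normally spread values chance alone marks about 1 in 20 groups. The criterion was applied to CPM without logarithms, and where CPM are skewed toward high values that rate does not hold. Several of the libraries recur, so these are not separate events.

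The vHipp library of mouse 11, a ketamine-treated CSDS mouse, accounted for 4: Gad1 at 608 CPM (the next library of the group 416), Gad2 at 407 CPM (the next 223), Reln at 450 CPM (the next 248) and Vip at 46.6 CPM (the next 24.3). In the same library Sst was the lowest of the region, at 39.1 CPM. Mouse 32, a ketamine-treated CTRL mouse, stood out in both regions, with Gad1 at 472 CPM (the next 396), Gad2 at 283 CPM (the next 206) and Vip at 24.0 CPM (the next 16.4) in the vHipp and Vip at 78.8 CPM (the next 63.5) in the mPFC.

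Mouse 7, a saline-treated CSDS mouse, was high in the mPFC for Vip at 103.2 CPM (the next 75.7) and Reln at 223 CPM (the next 159). Among saline-treated CTRL mice, Vip reached 96.9 CPM in the mPFC of mouse 24 (the next 73.3), Gad2 238 CPM in the mPFC of mouse 27 (the next 190) and Pvalb 32.6 CPM in the vHipp of mouse 22 (the next 22.4). Among ketamine-treated CSDS mice, mouse 1 had the most Cck in the mPFC, at 431 CPM (the next 324). None of the 40 tests of a difference of effects between groups or regions passed the adjusted threshold (smallest adjusted p = 0.66, edgeR).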

How the results depend on the processing

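The number of members called was the same under all 191 alternative settings: 8 in the region difference and 0 in the other 16 comparisons, also with the mouse as a replicate block, where the paired fit called 8 members among 15437 of 31497 genes. With the block the LFC of Calb2 was -1.36. Of 321 values of single genes, 319 kept their direction and side of the threshold. Both that reversed were uncalled region differences without mouse set 1: leaving out 1 set at a time, the LFC ran from -0.0621 to 0.114 for Reln and from -0.128 to 0.0337 for Pvalb. The adjusted p of Sst in the region difference reached 0.049 without set 5, its highest. Of 80 values of relations, 74 kept their direction and side of p = 0.05. Reln and Lamp5 in the mPFC turned to -0.0176 without the 2 farthest mice. Cross-region relations with an unadjusted p under 0.05 numbered 1, and 2 without the 2 farthest mice. Without the vHipp library of mouse 11, the Vip stress effect with ketamine, the mean stress effects of Gad1, Gad2, Reln, Sst, Cck and Npy and the Reln ketamine effects moved by over 1.5 times, as given beside those results, as did the region difference of Reln (0.10), and none had been called. Leaving out 1 set of mice moved other uncalled values as much, among them to -0.48 for Calb2 (without set 3, mean stress, vHipp), 0.21 for Pvalb (set 5, mean stress, vHipp) and 0.19 (set 5, stress with saline, vHipp), 0.06 for Sst (set 2, mean ketamine, mPFC), 0.03 for Lamp5 (set 2, mean stress, mPFC), 0.08 for Npy (set 1, interaction, mPFC), -0.05 for Vip (set 1, ketamine in CTRL mice, mPFC), 0.12 for Reln (set 3, mean ketamine, vHipp) and 0.59 for Calb2 (set 3, difference of the stress effects). The 95% intervals of the mean stress effect reached 0.25 to either side in the mPFC and 0.68 in the vHipp.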

Other observations

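The members not described by group above had group medians close together. In the mPFC the 4 medians lay between 292 and 311 CPM for Gad1, 168 and 176 CPM for Gad2, 296 and 309 CPM for Cck, 33.0 and 37.2 CPM for Npy, and 163 and 178 CPM for Lamp5. In the vHipp they lay between 347.5 and 380 CPM for Gad1, 180 and 203 CPM for Gad2, 176 and 186 CPM for Cck, 26.6 and 30.6 CPM for Npy, and 47.9 and 54.5 CPM for Lamp5. Within each gene the 4 groups overlapped in both regions.

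For the difference of the mean stress effect between the regions, no gene of the 4 related lists passed the adjusted threshold (edgeR). At an unadjusted p under 0.05 there were 6 of 28 subtype genes, all with the smaller LFC in the mPFC, 5 of 15 transcription factors, 4 of them with the smaller LFC in the mPFC, 1 of 7 GABA genes and 1 of 16 receptors, where 6.86% of all genes did. Without the vHipp library of mouse 11 these were 3 of 28, 2 of 15, 1 of 7 and 2 of 16, where 6.08% of all genes did. The median difference was -0.16 for the subtype genes and 0.0090 over all genes.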
